A study of Mus musculus with 16 samples.

Results

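The genes of cytochrome P450 families 1 to 3 were followed in the livers of 16 mice. They were taken by name: every probe whose platform gene symbol began with Cyp1, Cyp2 or Cyp3, then a subfamily letter and a number, was kept, and probes of the same symbol were averaged. This gave 41 genes from 48 probes, of 36824 features on the array. Of the genes, 3 belonged to family 1, 32 to family 2 and 6 to family 3, and 28 further P450 genes lay outside these families. The mice were 8 heterozygotes for a knockout allele of lipoprotein lipase (Lpl+/-) and 8 wild type littermates, all male and fed chow. Each liver was hybridized against one pool of liver RNA from 9 wild type males on chow, with dye swap, and there is 1 value per gene and mouse. The sources used here give neither age, strain background, time of day of sampling nor how the Lpl allele was made. The labels number the mice but do not say which of them share a litter, and p-values measure the spread between these 16 livers.

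P450 enzymes are haem proteins of the endoplasmic reticulum that add oxygen to their substrates with electrons from the reductase Por. Families 1 to 3 hold most of the enzymes that clear drugs, pollutants and steroids in the liver, and their genes lie in clusters of close copies. In mouse liver the Cyp1 genes answer to the aryl hydrocarbon receptor, Cyp2b, Cyp2c and Cyp3a genes to the receptors CAR (Nr1i3) and PXR (Nr1i2), and several Cyp2 and Cyp3 genes differ between the sexes or over the day. The array was set against RefSeq names of assembly GRCm38.p6, which placed 12 of the 41 genes on chromosome 7, 9 on chromosome 19, 6 on chromosome 5, and 5 each on chromosomes 4 and 15.

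Values are log ratios of a mouse over the pool, with 0 at the level of the pool, on a scale read as log10. Both the base and the direction are inferred, and folds rest on them. The knocked-out gene followed the labels: Lpl averaged -0.01 ± 0.05 (SD, n = 8) in wild type and -0.39 ± 0.14 (SD, n = 8) in Lpl+/- livers, without overlap (limma adjusted p = 0.0158). The arrays of wild type 5 and wild type 8 ran against each other over all probes (r = -0.352, the only one of 120 pairs under -0.3), so their direction is not settled. Their values are given as deposited and would have the opposite sign if the array runs the other way, which changes their place among the mice but not whether 2 genes share a sign in a mouse. Counts and tests are given with a sign turned where that was run and changes them. A ratio to a liver pool gives no absolute level, so it cannot show whether a marker of another cell type is present. Nor can fewer cells of a type be told apart from less RNA per cell. The 6 hepatocyte markers averaged between -0.249 and 0.042, with Lpl+/- 4 the lowest, and the 5 Kupffer cell markers between -0.204 and 0.172. Endothelial, stellate, bile duct, lymphocyte and kidney lists stayed between -0.144 and 0.041 in every mouse, and the intestine list between -0.109 and 0.135. None of the genes in these 8 lists was called between genotypes.

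Between genotypes, none of the 41 P450 genes passed the test, and differences that are small against the spread between mice may have been missed. With limma and Benjamini-Hochberg adjustment over all features, 0 of 41 passed an adjusted p of 0.05, against 0.0163% of all features. At an unadjusted p under 0.05, 1 of 41 (2.44%) was found against 5.6% of all features, and the exact permutation test put 0 of 41 under 0.05. The lowest adjusted p among the 41 was 0.836. Of the genes, 20 had the higher mean in Lpl+/- and 21 in wild type, while 51% of all features were higher in Lpl+/-. The median difference, Lpl+/- minus wild type, was -0.0013 over the P450 genes and 0.0005 over all features. All 41 genes overlapped between the genotypes, but the share of all features that overlap was not counted. With the sign of wild type 5 turned, 26 were higher and 15 lower. With that of wild type 8 turned, 9 were higher and 32 lower, and 0 of 41 passed either way. The split also followed single mice: it was 28 higher and 13 lower without Lpl+/- 4, and 14 higher and 27 lower without wild type 8.

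**Figure D1:**
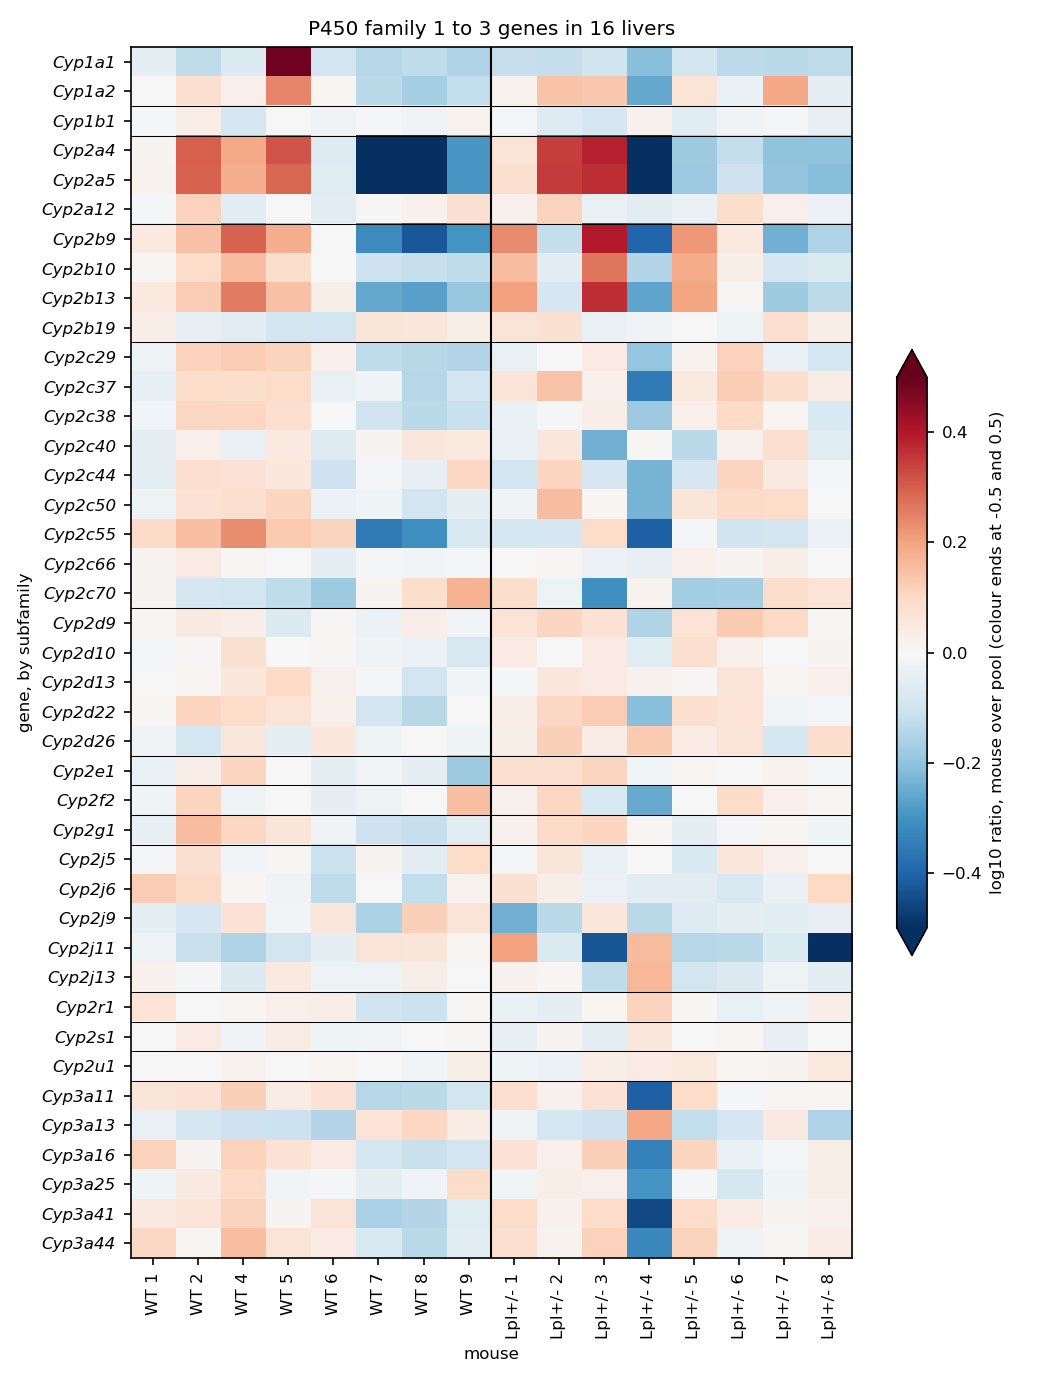
Log10 ratio of each of the 41 genes (rows, by subfamily) in each of the 16 livers (columns, wild type left of the black line, Lpl+/- right), blue below and red above the pool, with colour ending at -0.5 and 0.5. Cyp2a4 and Cyp2a5 have the strongest colours across mice of both genotypes, wild type 5 has the single dark red Cyp1a1 cell, and Lpl+/- 4 is blue for most Cyp2c and Cyp3a genes.

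In family 1, the range of Cyp1a1 was set by 1 mouse. Cyp1a1, which oxidizes polycyclic aromatic hydrocarbons and is induced through the aryl hydrocarbon receptor, ran in wild type from -0.156 through a median of -0.111 to 0.486. In Lpl+/- it ran from -0.21 through -0.123 to -0.092. Wild type 5 stood at 0.486, while the other 7 wild types and all 8 Lpl+/- mice lay below the pool. The genotype difference was -0.09 (SE 0.07, 0.805-fold; limma adjusted p = 0.836, exact permutation p = 0.175). Without wild type 5 it was -0.02 (limma adjusted p = 0.94), and with that array's sign turned it was 0.03 (limma adjusted p = 0.969), the opposite direction.

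Cyp1a2, the constitutive hepatic enzyme of the family, which oxidizes caffeine and aromatic amines, was also highest in wild type 5. It ran from -0.168 through 0.004 to 0.242 in wild type and from -0.258 through 0.042 to 0.192 in Lpl+/-. Lpl+/- 4 was the lowest mouse for both Cyp1a genes. Over 16 mice they correlated with r = 0.558 (permutation p = 0.013, 0.0247 adjusted over a family of 11 pairs) and Spearman's rho = 0.562 (permutation p = 0.0258, adjusted 0.0406). Within genotypes r was 0.81 in wild type (exact p = 0.012, adjusted 0.022) and 0.757 in Lpl+/- (exact p = 0.0485, adjusted 0.0889, which misses the threshold). Without wild type 5 and Lpl+/- 4 r was 0.272 (permutation p = 0.349), so the relation rests on those mice. With array 5 or array 8 of the wild types turned it was 0.586 and 0.605. The 11 pairs were chosen with earlier results of these data known. They include the close copies Cyp2a4 with Cyp2a5 and Cyp2b9 with Cyp2b13, whose small p-values ease the adjustment of the other pairs.

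Tiparp, another target of the same receptor, correlated with Cyp1a1 with r = 0.503 (permutation p = 0.0377, adjusted 0.0518) and rho = 0.662 (permutation p = 0.00675, adjusted 0.0129). Without wild type 5 and Lpl+/- 4 r was 0.572. Tiparp itself stood at 0.094 in wild type 5, second to Lpl+/- 3 at 0.115. Cyp1b1, which is mainly expressed outside the liver, stayed between -0.085 and 0.032, and its 2 probes did not move together (r = -0.023), so its mean carries little information on single mice.

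The widest variation between mice was in subfamily 2a. Cyp2a5, the coumarin 7-hydroxylase, and Cyp2a4, a steroid 15-alpha-hydroxylase, are close copies on chromosome 7. Cyp2a5 ran in wild type from -0.672 through -0.022 to 0.296 and in Lpl+/- from -0.605 through -0.141 to 0.368, a range of 1.04 on the log10 scale over all mice. Wild type 8, Lpl+/- 4 and wild type 7 were lowest, and Lpl+/- 3, Lpl+/- 2, wild type 2 and wild type 5 were highest, so both ends held both genotypes. Turned, wild type 8 would be the highest of the 16 at 0.672 and wild type 5 would lie below the pool at -0.289. The genotype difference was 0.03 (SE 0.16, 95% interval -0.306 to 0.374; limma adjusted p = 0.972). Cyp2a4 followed it in every mouse: the values differed by at most 0.0282, with r = 0.999 and rho = 0.994 (permutation p = 1e-05 for both, the smallest that the permutations can give). Whether the probes tell the transcripts apart was not tested, as probe sequences were not used here.

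The promoter windows of the pair are shown because they are as close as the values. They are from RefSeq, assembly GRCm38.p6, plus strand, from 250 bases before to 50 bases after the start in the table, on chr7:26306942-26307241 for Cyp2a4 and chr7:26835089-26835388 for Cyp2a5. Capitals mark 3 motifs searched on both strands: TTGCATAA, a variant of the D-box that Dbp and related factors bind; CAAAGTCC, a form of the element bound by Hnf4a; and TATAAA, the TATA box.
Cyp2a4: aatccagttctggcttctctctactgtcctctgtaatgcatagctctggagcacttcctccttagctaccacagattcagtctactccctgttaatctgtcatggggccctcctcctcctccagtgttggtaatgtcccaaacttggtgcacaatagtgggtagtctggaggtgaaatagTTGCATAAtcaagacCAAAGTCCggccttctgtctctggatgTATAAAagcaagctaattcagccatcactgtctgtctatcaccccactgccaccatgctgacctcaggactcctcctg
Cyp2a5: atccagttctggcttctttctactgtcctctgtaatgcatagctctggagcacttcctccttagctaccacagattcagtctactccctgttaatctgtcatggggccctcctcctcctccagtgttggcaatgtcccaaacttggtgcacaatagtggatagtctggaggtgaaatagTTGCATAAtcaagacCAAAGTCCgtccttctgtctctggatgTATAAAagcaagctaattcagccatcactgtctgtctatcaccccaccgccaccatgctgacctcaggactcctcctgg
The windows were 98.3% identical over aligned bases, with 5 mismatches and 2 gap bases, and both held all 3 motifs. The motifs were chosen after these sequences had been read. Of 32851 windows in the table, 0.743% held TTGCATAA, 1.42% held CAAAGTCC and 13.6% held TATAAA. Of the 36 P450 genes with a window, 4 held the first (Cyp2a4, Cyp2a5, Cyp2b10 and Cyp2b19), 8 the second and 20 the third. A match is a description of letters and not a site.

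Dbp, a clock-controlled transcription factor whose level swings over the day, had the same sign as Cyp2a5 in 16 of 16 mice. It was above the pool in 4 wild types and 3 Lpl+/- mice, as Cyp2a5 was. The correlation was r = 0.759 (permutation p = 0.00097) and rho = 0.738 (permutation p = 0.00128), with r = 0.855 in wild type (exact p = 0.00935) and 0.724 in Lpl+/- (exact p = 0.0444). Without wild type 8 and Lpl+/- 4 r was 0.742, and with wild type array 5 or 8 turned it was 0.741 and 0.781. This pair was chosen after the values had been seen. The mouse with the lowest Dbp, Lpl+/- 5 at -0.408, had Cyp2a5 at -0.18. Wild type 8, Lpl+/- 4 and wild type 7, the lowest for Cyp2a5, were as deposited also the highest for the acute phase genes given below. Neither the part of sampling time nor that of the acute phase was tested. Cyp2a12, a testosterone 7-alpha-hydroxylase, did not share the pattern: it stayed between -0.057 and 0.115, with both probes together (r = 0.978), and matched the sign of Cyp2a5 in 7 of 16 mice.

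**Figure D2:**
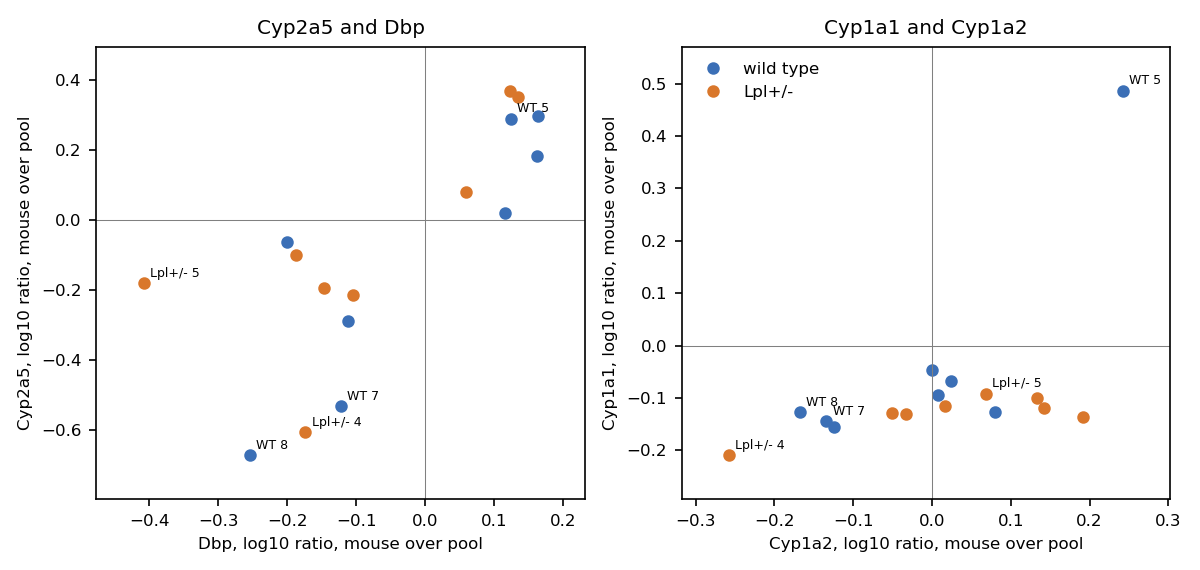
Each point is 1 mouse, blue wild type and orange Lpl+/-, with log10 ratios to the pool on both axes. Left, Cyp2a5 against Dbp: all 16 points lie at the lower left or the upper right of the 2 zero lines. Right, Cyp1a1 against Cyp1a2: wild type 5 is alone at the upper right, and the other 15 mice lie below 0 for Cyp1a1.

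Subfamily 2b varied together in 3 of its 4 genes. Cyp2b9 and Cyp2b13 are the genes of the subfamily known as female-predominant in mouse liver, and Cyp2b10 is the classical target of CAR. Cyp2b9 ran from -0.424 through 0.025 to 0.293 in wild type and from -0.395 through -0.034 to 0.398 in Lpl+/-. Wild type 8 was lowest and Lpl+/- 3 highest for both Cyp2b9 and Cyp2b13 as deposited, and the genotypes overlapped. The difference was 0.05 (SE 0.12; limma adjusted p = 0.951).

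Cyp2b13 ranged from -0.273 to 0.37 and had the sign of Cyp2b9 in 16 of 16 mice, with r = 0.992 and rho = 0.991 (permutation p = 1e-05, the smallest possible). Cyp2b10, between -0.147 and 0.269, had the sign of each in 15 of 16 mice. Cyp2b19, which is mainly a skin gene, stayed between -0.095 and 0.086 and had the sign of Cyp2b9 in 3 of 16. All 4 means were higher in Lpl+/-, by 0.028 to 0.046, and none passed. With the sign of wild type 8 turned 2 of 4 were higher.

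The windows of the 3 genes that moved together are given to set next to their values, from the same table and build and on the plus strand. They lie on chr7:26173159-26173458 for Cyp2b9, chr7:26061245-26061544 for Cyp2b13 and chr7:25897408-25897707 for Cyp2b10, and capitals mark the same motifs.
Cyp2b9: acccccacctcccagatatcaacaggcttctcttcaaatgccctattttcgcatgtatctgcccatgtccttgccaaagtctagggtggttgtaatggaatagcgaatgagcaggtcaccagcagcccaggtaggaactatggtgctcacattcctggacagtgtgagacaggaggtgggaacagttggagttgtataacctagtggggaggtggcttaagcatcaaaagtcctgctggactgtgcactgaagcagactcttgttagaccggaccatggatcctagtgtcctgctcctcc
Cyp2b13: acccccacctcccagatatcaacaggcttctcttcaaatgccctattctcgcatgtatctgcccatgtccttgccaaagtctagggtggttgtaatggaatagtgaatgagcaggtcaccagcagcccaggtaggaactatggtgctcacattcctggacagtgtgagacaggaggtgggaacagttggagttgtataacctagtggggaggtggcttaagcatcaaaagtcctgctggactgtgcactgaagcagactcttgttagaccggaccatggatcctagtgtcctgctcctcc
Cyp2b10: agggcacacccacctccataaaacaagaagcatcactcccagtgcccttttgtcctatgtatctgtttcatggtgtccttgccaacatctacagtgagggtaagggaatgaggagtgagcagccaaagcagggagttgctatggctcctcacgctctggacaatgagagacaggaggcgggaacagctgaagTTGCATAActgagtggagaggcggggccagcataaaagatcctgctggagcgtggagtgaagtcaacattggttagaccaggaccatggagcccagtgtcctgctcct
Cyp2b9 and Cyp2b13 were 99.3% identical with 2 mismatches and held none of the 3 motifs. Cyp2b10 was 80.1% identical to each over aligned bases and held TTGCATAA once. For this pair too, what the probes tell apart was not tested.

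Cyp2b10 and Cyp3a11, the usual reporters of CAR and PXR, correlated over the 16 mice with r = 0.715 (permutation p = 0.00095, adjusted 0.00261) and rho = 0.903 (permutation p = 1e-05, adjusted 3.67e-05). Within genotypes r was 0.901 in wild type (exact p = 0.00667, adjusted 0.0183) and 0.657 in Lpl+/- (exact p = 0.0379, adjusted 0.0887, which misses the threshold). Without Lpl+/- 3 and Lpl+/- 5 r was 0.75. Alas1, which makes haem for these enzymes and shares regulators with them, did not track Cyp2b10 (r = 0.084, permutation p = 0.753; rho = 0.0853, permutation p = 0.756).

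Subfamily 2c, 9 genes on chromosome 19 that hydroxylate or epoxidize arachidonic acid, steroids and drugs, had 3 means higher and 6 lower in Lpl+/-. With the sign of wild type 5 turned 5 were higher, and with that of wild type 8 turned 0. Cyp2c55, a gene inducible through CAR and PXR, varied most. It ran from -0.355 through 0.103 to 0.232 in wild type and from -0.406 through -0.086 to 0.091 in Lpl+/-. Wild types 7 and 8 and Lpl+/- 4 were far below the pool, 5 wild types were above it and 1 Lpl+/- mouse was. The difference was -0.09 (SE 0.09; limma adjusted p = 0.859).

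Cyp2c40, an arachidonic acid hydroxylase, ran from -0.066 through 0.018 to 0.058 in wild type and from -0.241 through -0.016 to 0.084 in Lpl+/-, with Lpl+/- 3 lowest. Its difference was -0.04 (SE 0.04; limma adjusted p = 0.849), and -0.015 without Lpl+/- 3. Cyp2c29 and Cyp2c37 correlated with r = 0.756 (permutation p = 0.0002, adjusted 0.000733) and rho = 0.694 (permutation p = 0.0033, adjusted 0.00907), and r was 0.694 without wild type 4 and Lpl+/- 4. Cyp2c70, the enzyme that makes muricholic acids in mice, ran from -0.305 in Lpl+/- 3 to 0.175 in wild type 9. Cyp2c29, Cyp2c37, Cyp2c38, Cyp2c44 and Cyp2c50 lay between -0.354 and 0.152 in all mice, and Lpl+/- 4 was the lowest mouse for each of the 5. Cyp2c66 was nearly flat, between -0.047 and 0.04, and its 2 probes agreed little (r = 0.333).

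All 5 genes of subfamily 2d, on chromosome 15, had the higher mean in Lpl+/-, by 0.014 to 0.064, and none passed. With the sign of wild type 8 turned 3 of 5 were higher. Cyp2d26 had the smallest unadjusted p of the 41 genes. It ran from -0.089 through -0.019 to 0.055 in wild type and from -0.089 through 0.052 to 0.132 in Lpl+/-. In Lpl+/- 7 of 8 mice were above the pool, with Lpl+/- 7 the exception, and 3 of 8 wild types were. The difference was 0.06 (SE 0.03, 95% interval 0.0035 to 0.124, 1.16-fold; unadjusted limma p = 0.0394, adjusted 0.836; exact permutation p = 0.0536).

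Cyp2d9, the male-predominant testosterone 16-alpha-hydroxylase, ran from -0.07 through 0.006 to 0.043 in wild type and from -0.152 through 0.07 to 0.132 in Lpl+/-. In Lpl+/- 7 of 8 mice were above the pool, 6 of them above every wild type (4 if array 5 of the wild types is turned), and Lpl+/- 4 was the lowest of all 16. The difference was 0.05 (SE 0.03; limma adjusted p = 0.836, exact permutation p = 0.176). Without Lpl+/- 4 it was 0.08 (SE 0.02; limma adjusted p = 0.661), and with wild type array 5 turned 0.0321.

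Cyp2d10 ran from -0.08 through -0.004 to 0.078 in wild type and from -0.059 through 0.02 to 0.079 in Lpl+/-, with a difference of 0.02 (SE 0.02; limma adjusted p = 0.853). It was 0.012 without wild type 9, 0.0138 without Lpl+/- 5 and 0.0345 without wild type 4. It correlated with Cyp2d9 with r = 0.528 (permutation p = 0.0361, adjusted 0.0518) and rho = 0.538 (permutation p = 0.0343, adjusted 0.0472), and r was 0.414 without wild type 5 and Lpl+/- 4. Cyp2d13 and Cyp2d22 lay between -0.21 and 0.127, with differences of 0.02 and 0.01.

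Cyp2e1, which oxidizes ethanol, acetone and paracetamol, ran from -0.178 through -0.026 to 0.106 in wild type and from -0.014 through 0.014 to 0.106 in Lpl+/-. Of the Lpl+/- mice 6 of 8 were above the pool, and of the wild types 2 of 8, with wild type 9 lowest. The difference was 0.06 (SE 0.03, 1.14-fold; limma adjusted p = 0.836, exact permutation p = 0.0951), and 0.0356 without wild type 9. With Cyp1a2, which shares its place near the central vein, r was 0.491 (permutation p = 0.0534, adjusted 0.0653) and rho 0.656 (permutation p = 0.00703, adjusted 0.0129).

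**Figure D3:**
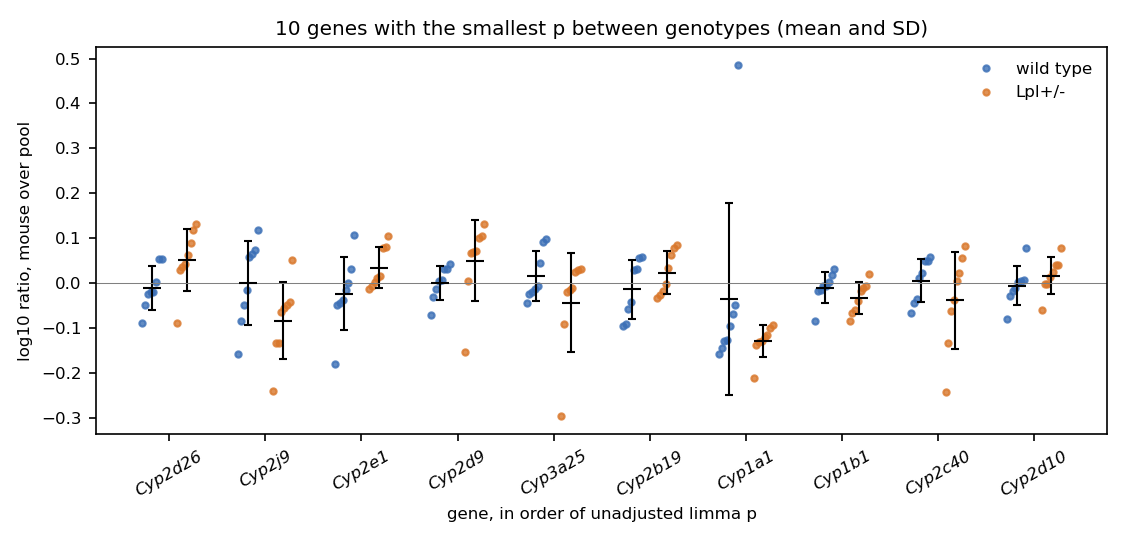
The 10 genes with the smallest unadjusted p between genotypes, in that order, with 1 point per mouse (log10 ratio to the pool, blue wild type, orange Lpl+/-) and the mean with SD of 8 mice. Every gene overlaps between the genotypes, and the wild type SD of Cyp1a1 is set by the point at 0.486.

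In subfamily 2j, 5 genes on chromosome 4 that include arachidonic acid epoxygenases, 1 mean was higher and 4 lower in Lpl+/-, and 0 and 5 with the sign of wild type 8 turned. Cyp2j9 ran from -0.157 through 0.022 to 0.119 in wild type and from -0.24 through -0.06 to 0.052 in Lpl+/-. Of the wild types 4 of 8 and of the Lpl+/- mice 1 of 8 were above the pool. The difference was -0.08 (SE 0.04, 0.823-fold; limma adjusted p = 0.836, exact permutation p = 0.0836), and -0.05 with the sign of wild type 8 turned.

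Cyp2j11 ran from -0.15 through -0.038 to 0.065 in wild type and from -0.558 through -0.104 to 0.202 in Lpl+/-. Both ends lay in Lpl+/- mice: replicates 8 and 3 were lowest, at -0.558 and -0.428, and replicates 1 and 4 highest. The difference was -0.09 (SE 0.09; limma adjusted p = 0.855). Cyp2j5, an epoxygenase of kidney and liver, Cyp2j6 and Cyp2j13 lay between -0.129 and 0.167, with differences of -0.02 to 0.003.

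Of the subfamilies with a single gene, Cyp2f2, which oxidizes naphthalene, ran from -0.252 in Lpl+/- 4 to 0.15 in wild type 9, with a difference of -0.03 (SE 0.04; limma adjusted p = 0.909). Cyp2g1, best known from the olfactory mucosa, ran from -0.115 to 0.153. Cyp2r1, a vitamin D 25-hydroxylase, ran from -0.106 to 0.11, with a difference of 0.01 (SE 0.03; limma adjusted p = 0.941). Cyp2s1 and Cyp2u1 were the flattest with Cyp2c66, ranging from -0.051 to 0.056 and from -0.029 to 0.051. The 2 probes of Cyp2u1 ran against each other (r = -0.608), so its small spread is that of an average of discordant probes.

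Family 3, 6 Cyp3a genes on chromosome 5 that metabolize many drugs and steroids, had all 6 means lower in Lpl+/- (differences of -0.0593 to -0.0021), and none passed. This count followed 1 mouse: without Lpl+/- 4, 4 of 6 were higher. With the sign of wild type 5 turned 3 of 6 were higher. Cyp3a11, the main inducible form in adult mouse liver, ran from -0.144 through 0.05 to 0.118 in wild type and from -0.408 through 0.013 to 0.09 in Lpl+/-. Lpl+/- 4 was lowest, and wild types 7, 8 and 9 were the next lowest. The difference was -0.02 (SE 0.06; limma adjusted p = 0.967), and 0.04 without Lpl+/- 4 (limma adjusted p = 0.802).

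Cyp3a25 ran from -0.044 through -0.01 to 0.099 in wild type and from -0.296 through -0.013 to 0.031 in Lpl+/-. Lpl+/- 4 was again far below the rest. The difference was -0.06 (SE 0.04; limma adjusted p = 0.836, exact permutation p = 0.191), and -0.02 without Lpl+/- 4. Cyp3a11 and Cyp3a25 correlated with r = 0.748 (permutation p = 0.0135, adjusted 0.0247) and rho = 0.506 (permutation p = 0.0492, adjusted 0.0602). Without wild type 7 and Lpl+/- 4 r was 0.0882 (permutation p = 0.761), so this relation rests on those mice.

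The other Cyp3a genes split in 2 ways. Cyp3a16, Cyp3a41 and Cyp3a44, of which the last 2 are female-predominant in adult mouse liver, had the sign of Cyp3a11 in 15, 15 and 16 of 16 mice and lay between -0.452 and 0.151. Whether the probes of Cyp3a11, Cyp3a16, Cyp3a41 and Cyp3a44 tell these transcripts apart was not tested. Cyp3a13 had the sign of Cyp3a11 in 2 of 16. Cyp3a13 was highest in Lpl+/- 4 at 0.192 and next in wild types 8 and 7, the mice in which Cyp3a11 was low.

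The 8 acute phase genes, which the liver switches on in inflammation, were highest in the same mice as deposited. Their mean was 0.679 in Lpl+/- 4, 0.053 in wild type 8 and -0.036 in wild type 7, and the other 13 mice lay between -0.969 and -0.242. All 8, Saa1, Saa2, Saa3, Orm1, Orm2, Hp, Lcn2 and Apcs, were above the pool in Lpl+/- 4, and 0 of the 8 were called between genotypes. Lpl+/- 4 was the lowest mouse for 17 of the 41 P450 genes and among the lowest 3 for 25, wild type 8 for 24 and wild type 7 for 17. With the sign of wild type 8 turned these counts of the lowest 3 were 25, 1 and 21, and with that of wild type 5 turned 25, 24 and 15. The same counts were not made over all features. It is therefore not known whether these mice were low for P450 genes in particular. Turned, the acute phase mean would be -0.053 in wild type 8, and 0.969 in wild type 5, the highest of all mice. Saa1 and Cyp3a11, a pair chosen after the values had been seen, correlated with r = -0.687 (permutation p = 0.0023) but rho = -0.429 (permutation p = 0.099). Without wild type 7 and Lpl+/- 4 r was -0.378 (permutation p = 0.175), so the relation over all mice rests on those 2. Within genotypes r was -0.747 in wild type (exact p = 0.0406) and -0.668 in Lpl+/- (exact p = 0.103), unadjusted. With wild type array 5 or 8 turned it was -0.543 and -0.52. The part of the acute phase in the P450 values was not tested.

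**Figure D4:**
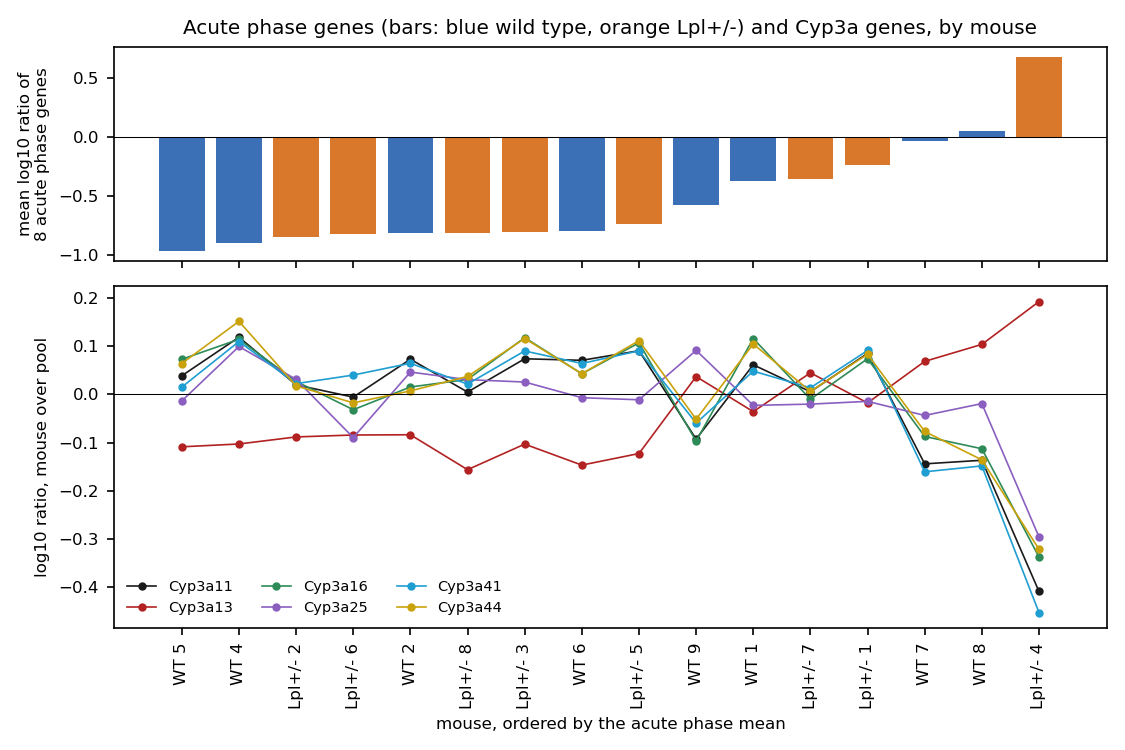
Top, mean log10 ratio of 8 acute phase genes in each mouse (blue wild type, orange Lpl+/-), in rising order. Bottom, the 6 Cyp3a genes in the same order, as log10 ratios to the pool. At the right end, in wild type 7, wild type 8 and Lpl+/- 4, Cyp3a11, Cyp3a16, Cyp3a41 and Cyp3a44 are below 0 and Cyp3a13 is above 0.

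Across the 41 genes, the spread between mice of a genotype was larger than for most features. The median within-genotype SD was 0.094, against 0.042 over all features, and 20 of 41 lay above the 90th percentile of all features (0.0943). The 6 widest were Cyp2a5 (0.346), Cyp2a4 (0.344), Cyp2b9 (0.269), Cyp2b13 (0.211), Cyp2j11 (0.192) and Cyp2c55 (0.186). The 3 narrowest were Cyp2s1 (0.0303), Cyp2c66 (0.0248) and Cyp2u1 (0.0234). Signal intensities were not used here, so noise of a probe and differences between mice cannot be told apart in an SD.

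The SD was larger in Lpl+/- for 25 of the 41 genes, and the same count was not made over all features. By Dixon's test Lpl+/- 4 stood apart from its group for 11 genes, and that test was not run over all features. Cyp3a11 and Cyp3a41 were among the 11, as were Cyp1a1 and Cyp2c55, whose SD was larger in wild type. A limma test of absolute deviations from the group median found 0 of 41 after adjustment, against 0% of all features, and 1 of 41 (Cyp2u1) at an unadjusted p under 0.05, against 2.94%. On simulated arrays this test found almost no unequal spread after adjustment, so its count of 0 does not show that the genotypes vary alike.

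**Figure D5:**
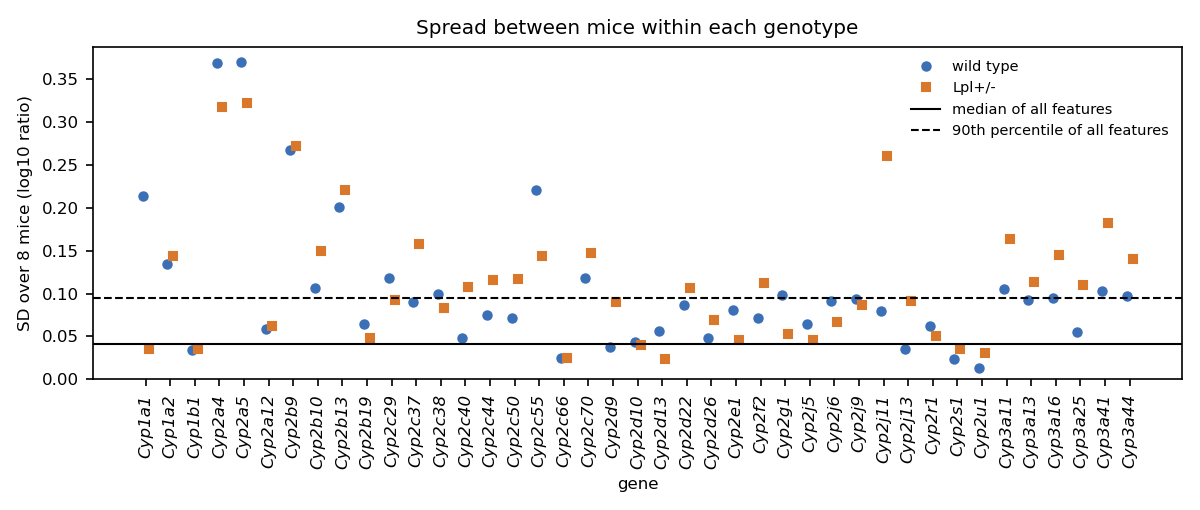
SD over 8 mice of the log10 ratio of each of the 41 genes (blue circles wild type, orange squares Lpl+/-), with the median (solid) and the 90th percentile (dashed) of the within-genotype SD of all features. Cyp2a4 and Cyp2a5 are highest in both genotypes, while Cyp1a1 is high in wild type alone and Cyp2j11 in Lpl+/- alone.

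Against the pool, the Lpl+/- group had 0 of 41 genes past the threshold (limma), against 0.0543% of all features, and 5 of 41 (12.2%) at an unadjusted p under 0.05, against 12.2%. These were Cyp2d26 and Cyp2d9 above the pool and Cyp1a1, Cyp1b1 and Cyp2j9 below it. The wild type group had 0 of 41, against 0% of all features, and 0 of 41 at the unadjusted level, against 1.88%. This test leaves out the pool's own spread. The sample titles do not say whether these wild types are among the mice of the pool. If they are, the wild type mean is drawn towards the pool, so the wild type counts are not an independent background. For Cyp1a1 the call depended on wild type 5: without it, the mean of Cyp1a1 was -0.129 in Lpl+/- (limma adjusted p = 0.000627) and -0.109 in wild type (limma adjusted p = 0.048). Those fits called 0.0625% and 0.00272% of all features. With all mice both means were below the pool too, at -0.129 in Lpl+/- and -0.035 in wild type. Wild type 5 is the only mouse above the pool for this gene, and this fit was picked from those with each mouse left out. These values are therefore a description. If wild type 5 is in the pool, its high value raises the pool and sets the other mice lower against it. Without Lpl+/- 4, the mean of Cyp2d9 in Lpl+/- was 0.079, above the pool (limma adjusted p = 0.0348), in a fit that called 0.342% of all features. That mouse had the lowest value of this gene, so this too is a description.

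The genes around these enzymes were examined in the same fit, where 0.0163% of all features passed and 5.6% had an unadjusted p under 0.05. Of 26 regulators and partners, among them the receptors Ahr, Nr1i2 and Nr1i3 and the reductase Por, 0 passed, 0 had an unadjusted p under 0.05, and 14 means were higher and 12 lower in Lpl+/-. None of 6 aryl hydrocarbon receptor targets passed at either level. Of 11 CAR and PXR targets 0 passed, and 2 had an unadjusted p under 0.05: Aldh1a1, a retinaldehyde dehydrogenase (1.28-fold; limma adjusted p = 0.836), and Gadd45b, a stress gene (0.715-fold; limma adjusted p = 0.836).

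Sex-biased genes outside the families gave 0 of 8 male-biased and 0 of 6 female-biased at either level. Of 7 pericentral genes 1 (Rhbg) and of 7 periportal genes 1 (Hsd17b13) had an unadjusted p under 0.05, and 0 passed. Of 28 P450 genes outside families 1 to 3, 0 passed and 1 (Cyp4f18, 0.889-fold; limma adjusted p = 0.836) was under 0.05 unadjusted. In that set Cyp4a14 and Cyp4a10, fatty acid hydroxylases and targets of Ppara, correlated with r = 0.419 (permutation p = 0.108, adjusted 0.119) and rho = 0.441 (permutation p = 0.0895, adjusted 0.0985), short of the threshold. Of 6 hepatocyte markers 2, Tat and Apoa1, had an unadjusted p under 0.05 (0.703-fold and 0.822-fold), and 1 mean was higher and 5 lower in Lpl+/-. Of 4 stellate cell markers 1, Lrat, was under 0.05 (0.861-fold), and 1 mean was higher and 3 lower. In both lists 0 passed, with a limma adjusted p of 0.836 for Tat, Apoa1 and Lrat.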

How the data were processed

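Liver RNA of 16 mice was extracted on spin columns with DNase treatment and labelled by an aminoallyl method with Cy3 and Cy5, per the labels' protocols. The deposited values are log ratios that were taken as log10: they end at exactly 2 and -2, a 100-fold limit in log10. How swapped hybridizations were joined, the background correction and the normalization are not given in the sources used here. No array was rescaled or centred (their medians were -0.0045 to 0.0072), and 0 to 88 values per array, none of them of a P450 gene, stood at the limit. No depth applies to arrays, so their number limits the precision.

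Probes were named through the platform annotation: 23283 of 39556 had 1 symbol, 0 had several and 16273 had none. Of the P450 genes, 34 had 1 probe and 7 had 2. Two-sided tests used limma 3.58.1 (R 4.3.3), 1 mean per genotype, no block, Benjamini-Hochberg over 36824 features and a threshold of 0.05. Single genes were also tested over all 12870 assignments of the mice, and correlations with 100000 permutations (exact within genotypes). Within-genotype SD pools both genotypes. The fits were tested on simulated arrays.

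The members, the lists and the pairs were chosen with earlier results of these data known. Named were Cyp1a1, Cyp2d9 and Cyp3a25, the 10 genes with the smallest p, the 6 largest and 3 smallest SD, and the largest difference in each subfamily; the other genes given with values were chosen after they had been seen. Mup1 was not measured under that symbol, so its pair with Cyp2d9 was dropped. Promoters are RefSeq, GRCm38.p6. Alternatives were quantile normalization, a trended and robust variance, a filter on flat features (5303 left), turned signs of 2 arrays, a replicate block and each mouse left out. Replicate numbers are shared by 7 pairs of mice, of which 3 correlated over 0.1 (range -0.245 to 0.381), so they were not taken as pairs.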

Additional observations from a re-analysis of the deposited data

Results flagged for a closer look

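Of 82 groups of 8 mice (41 genes in each genotype), 14 held a mouse that stood apart from the rest by Dixon's test, where chance gives about 1 in 20, or 4.1. Of these, 11 were Lpl+/- 4. In that mouse the Cyp3a genes other than Cyp3a13 stood low, Cyp3a41 at -0.452, Cyp3a11 at -0.408, Cyp3a16 at -0.337, Cyp3a44 at -0.321 and Cyp3a25 at -0.296. So did Cyp2c55 at -0.406, Cyp2c37 at -0.354, Cyp2c50 at -0.233, Cyp2d22 at -0.21, Cyp1a1 at -0.21 and Cyp2d9 at -0.152. These genes share a mouse and vary together, so they are not 11 separate observations. The other 3 were Cyp1a1 in wild type 5 at 0.486, Cyp1b1 in wild type 4 at -0.0845 and Cyp2d26 in Lpl+/- 7 at -0.0892. Dixon's test was not run over all features, so these counts do not show that P450 genes hold more such mice than other genes.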

How the results depend on the processing

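Between genotypes, 0 of 41 P450 genes passed under every alternative run, and no spread test passed under any of those it was run with. The Cyp1a1 difference turned from -0.09 to 0.0276 with the sign of wild type 5 turned, because that array holds its highest value. The other 9 of the 10 genes with the smallest p kept their direction and missed the threshold under all alternatives that tested them. The count over all features, 6 as reported, was 0 with quantile normalization and with a trended and robust variance, 2 with the filter on flat features, 3 with wild type 8 turned and 1 to 9 with each mouse left out. It was 1 with the replicate block (14 arrays), and also 1 on those arrays without a block and without wild types 5 and 8, 2 fits added after the data were seen. P450 genes at an unadjusted p under 0.05, 1 as reported, were 0 with quantile normalization, with the filter, with wild type 5 turned and without wild types 5 and 8, 2 with the replicate block and 0 to 3 with each mouse left out. Against the pool, Cyp1a1 was the 1 P450 gene that passed in Lpl+/- without wild types 5 and 8 (0.0516% of all features). It was also the 1 that passed with the group fitted alone (0.0625% of all features, limma adjusted p = 0.0125). With each mouse left out, 0 to 1 P450 genes passed in Lpl+/-, Cyp1a1 without wild type 5 and Cyp2d9 without Lpl+/- 4. In wild type 0 to 1 passed, Cyp1a1 without wild type 5, and 0 features passed with the group fitted alone. The replicate block changed no other call. The cause of the other changes was not tested. With 8 mice a genotype, Cyp2a5, the gene with the largest SD, had a 95% interval of -0.306 to 0.374 for its difference. True differences within that interval cannot be told apart with these mice.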
